A study of Mus musculus with 12 samples.

Results

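The genes described are 10 feedback genes of the FGF and MAPK pathway in neural cells made from mouse embryonic stem cells (mESC): Spry1, Spry2, Spry4, Spred1, Spred2, Il17rd, Dusp4, Dusp6, Etv4 and Etv5. They were chosen as the array probes that the scanner files name with these symbols, and the brightest probe stood for each gene. This gives 10 of the 22319 genes tested between groups. Of those, 16911 have a gene symbol, and every tested probe without a symbol is counted as a gene of its own. The study asked how enrichment for PSA-NCAM, the polysialylated neural cell adhesion molecule carried by young neurons and their precursors, changes stem cell-derived neural cultures. RNA of 12 samples was labelled with Cy5 and hybridised to 2-colour Agilent arrays against a common mESC RNA labelled with Cy3. Each value is therefore a log2 ratio of a sample to mESC, so that 1 unit is a 2-fold difference.

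There were 4 groups of 3 samples each. All 4 came from mESC of the C57BL/6 strain that carry an actin-eGFP transgene, grown on mouse fibroblast feeders, depleted of feeders, and taken through embryoid bodies and a selection for neural progenitors in serum-free medium. Step 5 enriched cells were PSA-NCAM-positive cells, isolated on a magnetic column after removal of dead cells, of the step with 7 days in medium with B27 supplement and 200 µM ascorbic acid and without basic FGF (bFGF, the product of Fgf2). Step 4 enriched cells were isolated in the same way and belong to the step before it, with 5 days in medium with N2 supplement and 10 ng/ml bFGF. Step 5 control cells and step 4 control cells had the media of those steps without the enrichment. The labels do not say whether step 5 enriched cells were isolated before or after the 7 days. Between the steps, bFGF, the supplement, ascorbic acid and time changed together, so that their effects cannot be told apart in these samples. The labels do not say whether the replicates of a group were separate cultures, and p-values measure the spread between these samples, which may be technical.

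FGFs bind receptor tyrosine kinases on the cell surface, which activate RAS and then the kinases RAF, MEK and ERK. Active ERK switches on genes whose products hold the pathway back, so that the RNA of these feedback genes is widely read as a sign of how active the pathway is. In neural precursor cultures bFGF is given to keep cells dividing, and its removal is a standard way to let them differentiate. Sprouty and Spred proteins act between the receptor and RAF, Il17rd (also called Sef) is a membrane protein that restrains FGF signalling, Dusp4 and Dusp6 remove phosphate from MAP kinases, and Etv4 and Etv5 are ETS transcription factors that FGF signalling induces.

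The stretch of 250 bases before the RefSeq start of the gene is shown for Il17rd, Dusp6 and Spry1, members with large differences between the steps in enriched cells, to let the sequences of these members be compared. They are from GRCm38.p6, 5′ to 3′ on the gene's strand, and the capitals mark each GGAA, the core that ETS factors bind, or its reverse complement TTCC.
Il17rd (chr14:27038751-27039000, plus strand): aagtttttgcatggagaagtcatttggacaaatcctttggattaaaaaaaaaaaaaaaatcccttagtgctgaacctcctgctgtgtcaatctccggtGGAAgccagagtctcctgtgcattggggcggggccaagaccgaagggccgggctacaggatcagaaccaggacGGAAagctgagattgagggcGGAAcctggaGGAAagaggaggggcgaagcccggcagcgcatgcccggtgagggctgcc
Dusp6 (chr10:99262981-99263230, plus strand): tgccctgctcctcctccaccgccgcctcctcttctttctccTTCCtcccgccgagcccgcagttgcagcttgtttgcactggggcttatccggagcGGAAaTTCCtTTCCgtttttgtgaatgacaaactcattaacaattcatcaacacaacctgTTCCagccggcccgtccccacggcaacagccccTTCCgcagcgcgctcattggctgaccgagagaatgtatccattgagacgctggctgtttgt
Spry1 (chr3:37639697-37639946, plus strand): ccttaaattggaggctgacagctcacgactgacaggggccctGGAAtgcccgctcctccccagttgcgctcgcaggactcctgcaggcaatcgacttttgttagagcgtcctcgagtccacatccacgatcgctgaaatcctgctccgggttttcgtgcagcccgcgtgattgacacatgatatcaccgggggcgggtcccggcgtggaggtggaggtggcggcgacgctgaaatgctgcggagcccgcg

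RefSeq entries for this window were found for 7 of the 10 members, with 8 promoters in all, and none was found for Spry4, Dusp4 or Etv4. The GGAA core, searched on both strands, was in 7 of the 8 promoters, a share to be read against the 93.4% of all 32851 promoters that hold it. The longer ETS motif CCGGAAG, which contains the core, was in 0 of the 8, against 6.91% of all promoters. The AP-1 motif TGANTCA was in 0 of the 8, against 6.75% of all promoters, and the CRE motif TGACGTCA in 0 of the 8, against 1.55%. GC content was 54.4% for Il17rd, 56.4% for Dusp6 and 62.4% for Spry1. A match is a description of the letters in this window, and no match says only that these letters are not in it.

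The 10 members are covered by 12 probes, 2 each for Etv4 and Spred1 and 1 for each other gene. Both channels were well above background on 12 of 12 arrays for every member probe, and 0 were saturated, so all 10 members entered the tests and none passed through a single group. The Il17rd probe lies at mm9 chromosome 14, 27920311 to 27920370, and the Etv4 probe at mm9 chromosome 11, 101631057 to 101631116, per the file annotation. Arrays correlated within groups at r of 0.940 to 0.962 in step 5 enriched, 0.897 to 0.963 in step 4 enriched, 0.662 to 0.918 in step 5 control and 0.737 to 0.850 in step 4 control cells. The replicate number is also the number of the slide, 1 to 3, that carried the array. Slide 2 differed from slides 1 and 3 in scan day and in the version of the scanner software, and its control arrays correlated least with the others of their group.

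The cells went partly with their labels. The mean log2 ratio of 8 neuron markers was 3.20 to 3.51 in step 5 enriched, 1.53 to 3.53 in step 4 enriched, -0.06 to 1.34 in step 5 control and -0.14 to 2.25 in step 4 control cells. The mean of 10 markers of pluripotent stem cells was -4.28 to -2.92 in step 5 enriched, -4.62 to -3.55 in step 4 enriched, -0.99 to -0.76 in step 5 control and -1.04 to -0.82 in step 4 control cells. Control cells thus lay far closer to mESC in these markers than enriched cells did, at both steps. Markers of mesenchyme and fibroblasts stood above mESC in every group, with means of 4.51 to 4.93 in step 5 enriched, 3.46 to 4.48 in step 4 enriched, 4.02 to 4.74 in step 5 control and 3.39 to 3.68 in step 4 control cells. In such bulk samples, fewer cells of a type and less RNA per cell cannot be told apart.

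In enriched cells all 10 members had a lower mean at step 5, without bFGF, than at step 4, with bFGF, and Il17rd and Etv4 fell by the test. Il17rd was 4.55-fold lower and Etv4 3.27-fold lower. The median difference of the 10 was -0.72 on the log2 scale, and the median of all tested genes was -0.00. Of the members 2 passed the test downward and 0 upward, a share to be set beside the 2.46% of all tested genes that passed downward and the 6.42% that passed in either direction. A lower mean was held by 10 of 10 members and by 50.5% of all genes, a mean at least 2-fold lower by 4 of 10 and 1.26%, a lower value on all 3 slides by 8 of 10 and 26.2%, and step 5 arrays all below the step 4 arrays by 3 of 10 and 14.3%.

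**Figure D1:**
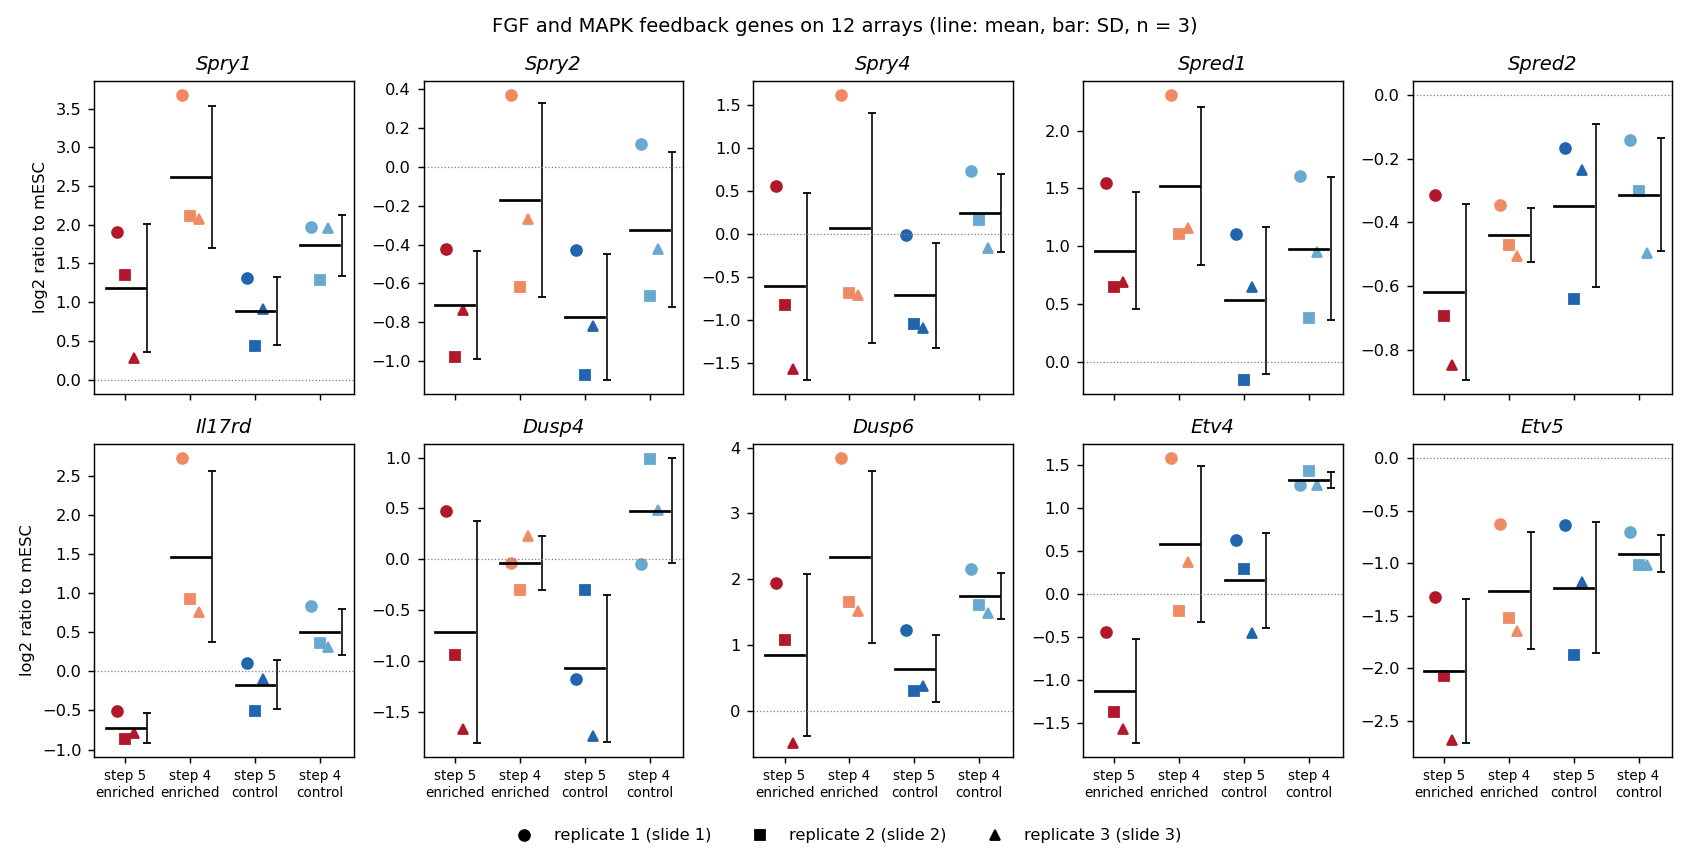
Log2 ratio to mESC of the 10 feedback genes on each of the 12 arrays, with groups on the x axis, 1 panel per gene and its own y scale. Points are arrays, shaped by slide, lines are means and bars are SD (n = 3). In the Il17rd panel the step 5 enriched arrays, at -0.87 to -0.50, lie below every array of the other groups but 1, and the circles of slide 1 stand high in most panels.

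Il17rd had log2 ratios of -0.50, -0.87 and -0.79 in step 5 enriched cells on slides 1, 2 and 3, against 2.73, 0.92 and 0.75 in step 4 enriched cells. Every step 5 array lay below mESC and every step 4 array above it, with no overlap. The difference was -2.19 (SE 0.43, limma adjusted p = 0.0171), and it was -3.23, -1.79 and -1.54 on slides 1, 2 and 3. Il17rd was the member with the largest fall, and its step 4 value on slide 1 stood well above the others. Without that array the difference was -1.56 and the adjusted p 0.00893, while it was -2.11 (adjusted p = 0.0556) without the step 5 enriched array of slide 2 and -2.15 (adjusted p = 0.0598) without that of slide 3.

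Etv4, a PEA3-class ETS factor, had log2 ratios of -0.45, -1.37 and -1.57 in step 5 enriched cells, against 1.58, -0.20 and 0.37 in step 4 enriched cells. All 3 step 5 arrays lay below all 3 step 4 arrays. The difference was -1.71 (SE 0.44, limma adjusted p = 0.0485), just inside the threshold, and it was -1.21 with an adjusted p of 0.103 without the step 4 enriched array of slide 1. Leaving out 1 array at a time, the call was lost for 9 of the 12 arrays, with changes of -1.82 to -1.21 for those 9. Over all alternatives of the closing section the change was -2.10 to -1.21. The second Etv4 probe gave -1.55 (adjusted p = 0.0451). Etv5, the closest relative of Etv4 here, had log2 ratios of -1.32, -2.08 and -2.68 in step 5 enriched cells and -0.62, -1.52 and -1.64 in step 4 enriched cells. Its groups overlapped, and the difference of -0.76 (SE 0.40) did not pass the test (adjusted p = 0.299), although it was negative on all 3 slides.

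Among the Sprouty genes, whose proteins inhibit receptor signalling to RAS and RAF, Spry1 differed most. Spry1 had log2 ratios of 1.91, 1.35 and 0.28 in step 5 enriched cells, against 3.67, 2.11 and 2.07 in step 4 enriched cells. The groups did not overlap, and Spry1 stayed above mESC on every enriched array. Its difference was -1.44 (SE 0.49, adjusted p = 0.119), which passed with slide as a block (adjusted p = 0.0351). Spry2 had a difference of -0.54 (SE 0.28), with -0.42, -0.98 and -0.73 in step 5 enriched cells and 0.37, -0.62 and -0.27 in step 4 enriched cells. It too passed with slide as a block only (adjusted p = 0.0148, against 0.304 without). Spry4 had log2 ratios of 0.57, -0.82 and -1.57 in step 5 enriched cells and 1.62, -0.69 and -0.71 in step 4 enriched cells, which overlapped. Its difference was -0.68 (SE 0.68, adjusted p = 0.615), and it was 0.09 without the step 4 enriched array of slide 1.

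The MAP kinase phosphatases did not pass the test. Dusp6, the cytoplasmic phosphatase of ERK, had log2 ratios of 1.94, 1.07 and -0.49 in step 5 enriched cells, against 3.84, 1.65 and 1.52 in step 4 enriched cells. The step 5 array of slide 1 lay above 2 of the 3 step 4 arrays, so the groups overlapped, while on each slide step 5 was the lower of the pair. The difference was -1.49 (SE 0.68, adjusted p = 0.236, and 0.0482 with slide as a block), and it was -0.74 without the step 4 enriched array of slide 1. Dusp4, a nuclear phosphatase of MAP kinases, had log2 ratios of 0.47, -0.94 and -1.67 in step 5 enriched cells and -0.04, -0.30 and 0.23 in step 4 enriched cells. Its slides disagreed in direction, at 0.51, -0.64 and -1.90, and the difference was -0.68 (SE 0.52, adjusted p = 0.496).

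The Spred genes, whose products hold back RAS activation of RAF, did not pass the test either. Spred1 had log2 ratios of 1.54, 0.65 and 0.69 in step 5 enriched cells and 2.30, 1.10 and 1.16 in step 4 enriched cells. The difference of -0.56 (SE 0.44, adjusted p = 0.516) was negative on all 3 slides, and the second probe of Spred1 gave -0.51. Spred2 had log2 ratios of -0.31, -0.69 and -0.85 in step 5 enriched cells and -0.35, -0.47 and -0.51 in step 4 enriched cells. Its difference was -0.18 with a 95% interval of -0.55 to 0.20 (adjusted p = 0.597), and its SD of 0.08 in step 4 enriched cells was the smallest of any member and group.

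With slide as a block in the fit, 5 of the 10 members fell (Il17rd, Etv4, Spry1, Spry2 and Dusp6), a share to be set beside the 4.4% of all genes that fell in that fit. Other RNAs differed between the same arrays. Of all 22319 tested genes 883 rose and 550 fell, and with slide as a block 1464 rose and 983 fell. Of 7 cell cycle markers 5 fell, and their mean log2 ratio was -2.41 to -1.91 in step 5 enriched cells and -1.39 to -1.13 in step 4 enriched cells. Of 5 astrocyte markers 3 rose, with means of 4.19 to 5.43 in step 5 enriched cells and 1.08 to 2.20 in step 4 enriched cells, and of 6 oligodendrocyte lineage markers 2 rose (5 with slide as a block), with means of 2.18 to 2.98 and 0.36 to 0.59 in those groups. Each of these markers was detected on at least 1 array of both groups. Of 8 markers of neural stem cells and radial glia 0 passed the test (Nes fell with slide as a block, adjusted p = 0.00166), with means of 2.86 to 3.55 in step 5 enriched cells and 3.26 to 3.65 in step 4 enriched cells. The part of these cell types and of the cell cycle in the result was not tested.

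**Figure D2:**
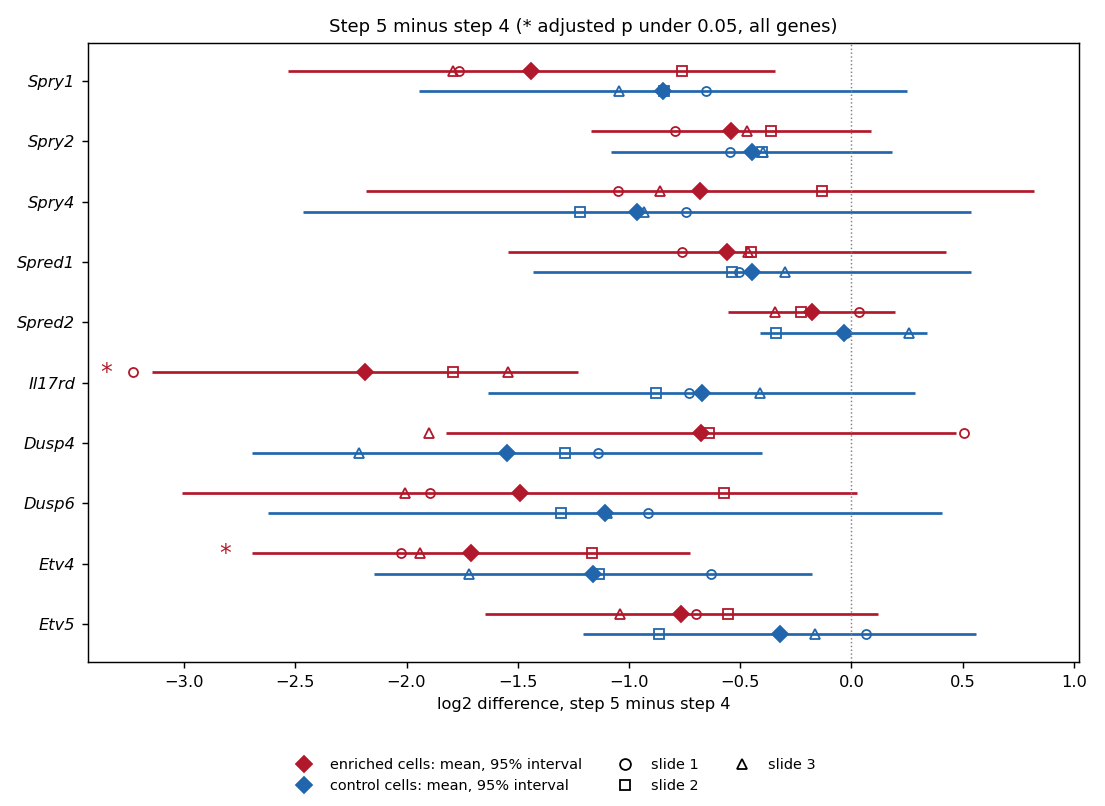
Difference between step 5 and step 4 in log2 units for each feedback gene, in enriched cells (upper row of each pair) and in control cells (lower row). Diamonds are means, bars 95% intervals and open symbols the differences on each slide, and a star marks an adjusted p under 0.05. All 20 means lie below 0, and stars stand at Il17rd (-2.19) and Etv4 (-1.71) in enriched cells.

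In control cells all 10 members again had a lower mean at step 5 than at step 4, but 0 passed the test, as did 0% of all tested genes. The median difference of the 10 was -0.76 on the log2 scale, and that of all genes 0.01. A lower mean was held by 48.7% of all genes, and a lower value on all 3 slides by 8 of 10 members and 19.8% of all genes. At an unadjusted p under 0.05, limma gave 2 of the 10 members (Dusp4 and Etv4), beside 8.59% of all genes, and with slide as a block 0 members and 1 gene of all (0.00448%) passed the adjusted threshold. A mean at least 2-fold lower was held by 3 of 10 members and by 0.3% of all genes. Both groups' values were apart, with every step 5 array lower, for 4 of 10 members (Dusp4, Dusp6, Etv4 and Il17rd), beside 5.22% of all genes.

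Dusp4 had log2 ratios of -1.18, -0.30 and -1.73 in step 5 control cells, against -0.04, 0.99 and 0.48 in step 4 control cells. The step 5 values all lay below the step 4 values, and the difference was -1.55 (SE 0.52, adjusted p = 0.386). Etv4 had log2 ratios of 0.63, 0.29 and -0.45 in step 5 control cells, against 1.26, 1.43 and 1.27 in step 4 control cells, a group in which it varied little. The difference was -1.16 (SE 0.44, adjusted p = 0.465). Dusp6 had log2 ratios of 1.23, 0.30 and 0.38 in step 5 control cells and 2.15, 1.61 and 1.48 in step 4 control cells. The groups did not overlap, and the difference was -1.11 (SE 0.68, adjusted p = 0.777).

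Il17rd had log2 ratios of 0.11, -0.51 and -0.10 in step 5 control cells and 0.84, 0.37 and 0.31 in step 4 control cells. Its groups did not overlap either, with a difference of -0.67 (SE 0.43, adjusted p = 0.794). Spry4 and Spry1 had differences of -0.96 and -0.85, negative on all 3 slides. Spry2 differed by -0.45 and Spred1 by -0.45, also negative on all 3 slides. Etv5 differed by -0.32 and Spred2 by -0.03, and their slides disagreed in direction. Astrocyte markers in these cells had means of 0.22 to 3.48 at step 5 and -0.22 to 0.77 at step 4, and cell cycle markers -0.93 to -0.27 at step 5 and -0.38 to -0.28 at step 4. The astrocyte marker S100b was above background on no step 4 control array. The part of these cells in the result was not tested.

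Whether the step change differed between enriched and control cells was tested directly. For 0 of 10 members did the difference of the changes pass the test, as for 0% of all genes. At an unadjusted p under 0.05, limma gave 1 member, Il17rd, beside 7.05% of all genes. For Il17rd the change in enriched minus that in control cells was -1.51 (SE 0.61, adjusted p = 0.641), and it was -2.50, -0.91 and -1.13 on slides 1, 2 and 3. Without the step 4 enriched array of slide 1 it was -0.88 (adjusted p = 0.548). For Etv4 this difference was -0.55 with a 95% interval of -1.94 to 0.84, and for Dusp4 0.87 with -0.75 to 2.49, so that sizeable differences in either direction remain within these intervals.

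Enriched and control cells of the same step were compared next, to ask whether PSA-NCAM enrichment went with another level of the feedback genes while the medium was the same. These comparisons share their samples with those between the steps. At step 5, Etv4 was lower in enriched cells and was the 1 member of 10 past the test, beside 40.4% of all genes. The median difference of the 10 members was 0.08, and that of all genes -0.01. At step 4, 0 of 10 members passed, beside 31.1% of all genes, with a median of 0.01 for the members and 0.01 for all genes. At an unadjusted p under 0.05 the step 4 count by limma was 1 member, Il17rd, beside 42.6% of all genes.

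**Figure D3:**
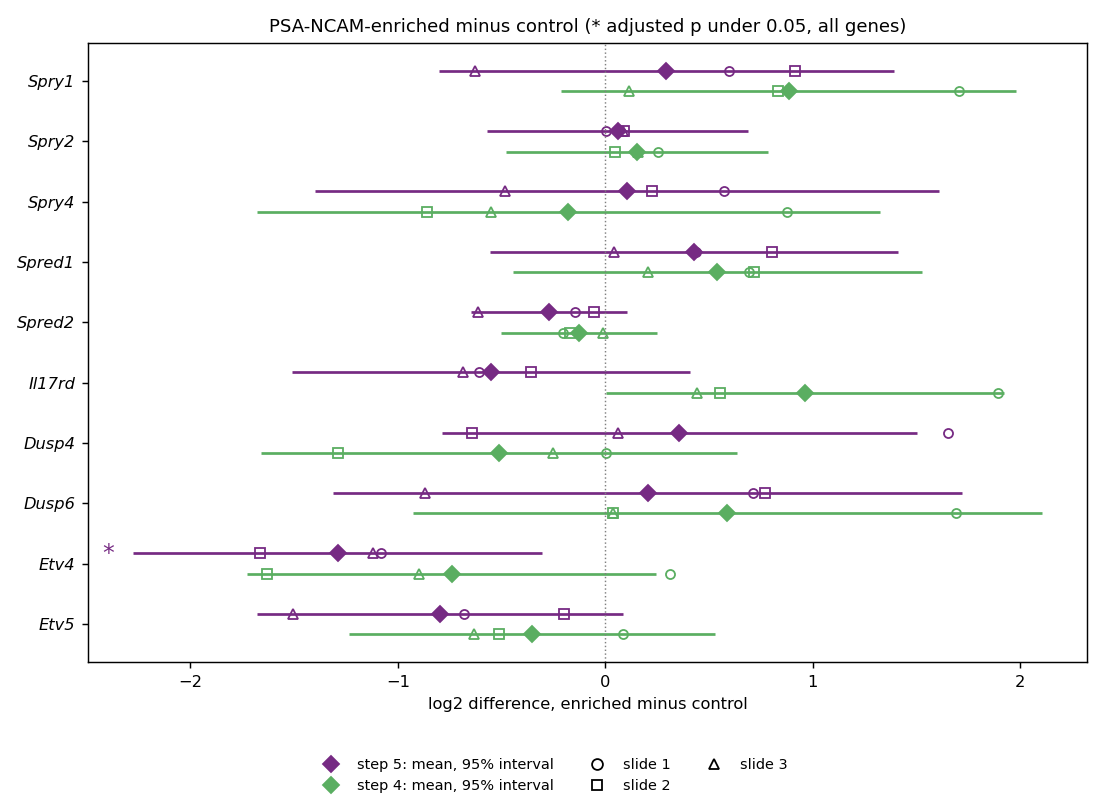
Difference between PSA-NCAM-enriched and control cells in log2 units for each feedback gene, at step 5 (upper row of each pair) and at step 4 (lower row). Diamonds are means, bars 95% intervals and open symbols the differences on each slide, and a star marks an adjusted p under 0.05. The star stands at Etv4 at step 5 (-1.29), and for Dusp6 at step 4 the slide differences run from 0.04 to 1.69.

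At step 5, the Etv4 difference between enriched and control cells was -1.29 (SE 0.44, limma adjusted p = 0.0403), with -1.08, -1.67 and -1.12 on slides 1, 2 and 3. The highest enriched and the lowest control value, among those given above, were both -0.45. The call was lost on leaving out 1 array for 8 of the 12 arrays, with differences of -1.29 to -1.05 for those 8. Over all alternatives of the closing section the difference was -1.63 to -1.05. The second Etv4 probe gave -1.24 (adjusted p = 0.0294), and its values of -0.79, -1.38 and -1.76 in enriched cells lay below those of 0.27, 0.25 and -0.72 in control cells. Etv5 differed by -0.80 (SE 0.40), lower in enriched cells on all 3 slides, and did not pass the test (adjusted p = 0.138). It passed with slide as a block (adjusted p = 0.0244), and without the step 5 enriched array of slide 1 it was -1.15 (adjusted p = 0.0477). In the fit with the block 2 of 10 members passed, beside 46.9% of all genes. Il17rd differed by -0.55 (SE 0.43, adjusted p = 0.343), lower on all 3 slides, and passed without the step 4 enriched array of slide 1, which left the difference as it was (adjusted p = 0.0468). The other 7 members had differences of -0.27 (Spred2) to 0.43 (Spred1), with adjusted p values of 0.231 to 0.916.

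At step 4, Il17rd had a difference of 0.96 between enriched and control cells (SE 0.43, adjusted p = 0.116), higher on all 3 slides. Spry1 had a difference of 0.88 (SE 0.49, adjusted p = 0.202), and it was the 1 member of 10 whose groups did not overlap, beside 22% of all genes with that pattern and higher in enriched cells. With slide as a block Il17rd (adjusted p = 0.039) and Spred1 (0.54, adjusted p = 0.0275) rose, 2 of 10 members beside 39.3% of all genes. Etv4 had a difference of -0.74 (SE 0.44, adjusted p = 0.235), with 0.31, -1.63 and -0.90 on slides 1, 2 and 3. Without the enriched array of slide 1 it was -1.24, past the test (adjusted p = 0.0332), while Il17rd was 0.33 and Spry1 0.36. Dusp6 had a difference of 0.59, with 1.69 on slide 1 against 0.04 on each of the other slides, and without that array it was -0.16. Spry2, Spry4, Spred2, Dusp4 and Etv5 had differences of 0.15, -0.18, -0.13, -0.51 and -0.35, with adjusted p values of 0.489 to 0.868.

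In both enrichment comparisons all 10 of 10 pluripotent stem cell markers fell, with medians of -3.36 at step 5 and -3.58 at step 4. Their ranges are given above, and the part of the stem cells in control cultures in these comparisons was not tested. Cell cycle markers were also lower in enriched cells, with 7 of 7 past the test at step 5 and 5 of 7 at step 4.

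The order of the group means put step 4 cells above step 5 cells for 8 of the 10 members. For Spry1, Spry2, Spred1 and Dusp6 it ran, from high to low, step 4 enriched, step 4 control, step 5 enriched, step 5 control, and for Spry4 and Dusp4 step 4 control, step 4 enriched, step 5 enriched, step 5 control. Etv4 ran step 4 control, step 4 enriched, step 5 control, step 5 enriched, and Il17rd step 4 enriched, step 4 control, step 5 control, step 5 enriched. Etv5 and Spred2 ran step 4 control, step 5 control, step 4 enriched, step 5 enriched. Of neighbours in these orders that a test here compares, Etv4 at step 5 passed between enriched and control cells, and the others did not. Neighbours that differ in both step and enrichment were not tested.

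Against mESC, the members lay on both sides. These levels are described without a test, since the sample was always in Cy5 and mESC always in Cy3, with 0 dye swaps, so that a dye effect cannot be told apart from a difference. Spry1 stood above mESC in every group, at 1.18 ± 0.83 in step 5 enriched, 2.62 ± 0.91 in step 4 enriched, 0.89 ± 0.44 in step 5 control and 1.74 ± 0.39 in step 4 control cells (log2 ratio, SD, n = 3 each). Etv5 stood below mESC on all 12 arrays, at -2.03 ± 0.68 in step 5 enriched, -1.26 ± 0.56 in step 4 enriched, -1.23 ± 0.62 in step 5 control and -0.91 ± 0.18 in step 4 control cells. Spred2 was also below mESC on all 12 arrays, by means of -0.62 ± 0.28 in step 5 enriched to -0.31 ± 0.18 in step 4 control cells. Etv4 lay on opposite sides, at -1.13 ± 0.60 in step 5 enriched and 1.32 ± 0.09 in step 4 control cells.

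The members varied together within groups as well as between them. In step 5 enriched cells 10 of 10 members had their highest value on the array of slide 1, in step 4 enriched cells 9, in step 5 control cells 9 and in step 4 control cells 8. Of all genes with values on every array, 33.6%, 36.9%, 32.6% and 30% had their highest value there in those groups. The median log2 ratio of the 10 members on slides 1, 2 and 3 was 0.08, -0.84 and -0.82 in step 5 enriched cells and 1.60, -0.25 and 0.30 in step 4 enriched cells. In control cells it was 0.05, -0.40 and -0.34 at step 5 and 0.79, 0.38 and 0.40 at step 4, while the median of all genes was between 0.03 and 0.06 on every array. On slide 1, too, the step 5 median lay below the step 4 median in both kinds of cells. The replicate number, the slide and whatever else the replicates shared cannot be told apart.

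Over the 12 arrays the 45 pairs of members correlated at r of 0.20 to 0.95, with a median of 0.65. After the group means were taken off, r was -0.08 to 0.97 with a median of 0.74. The points share slides and the mESC reference, and these values are a description. The closest pair was Dusp6 with Spry1 at 0.95, then Dusp6 with Spry4 at 0.92. Dusp4 was the least like the others, at 0.20 with Spred1 and 0.23 with Spred2.

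Among 16830 other named genes with values on 12 arrays, those most like Il17rd in pattern were Cemip2 (r = 0.96) and Adgrg2 (0.94). Adgrg2 was also among the 2 most like Spry1 (0.92) and Dusp6 (0.91), beside Lpar4 for Spry1 (0.92) and Lpar6 for Dusp6 (0.95). For Etv4 they were Cenpq (0.93) and Gm13271 (0.93), and for Etv5 Eif4a3 (0.94) and Eif3l (0.93). Eif4a3 (0.92) and Thumpd1 (0.91) were most like Spred2, Gbx2 (0.95) and Zbtb46 (0.95) most like Spry2, and Rgs19 (0.93) and Nme2 (0.90) most like Spry4. For Spred1 they were Nkx1-1 (0.95) and Nsmce3 (0.95), and for Dusp4 Tomm70a (0.96) and Yme1l1 (0.94). With so many genes and 12 arrays, high values of r arise in this search by selection.

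**Figure D4:**
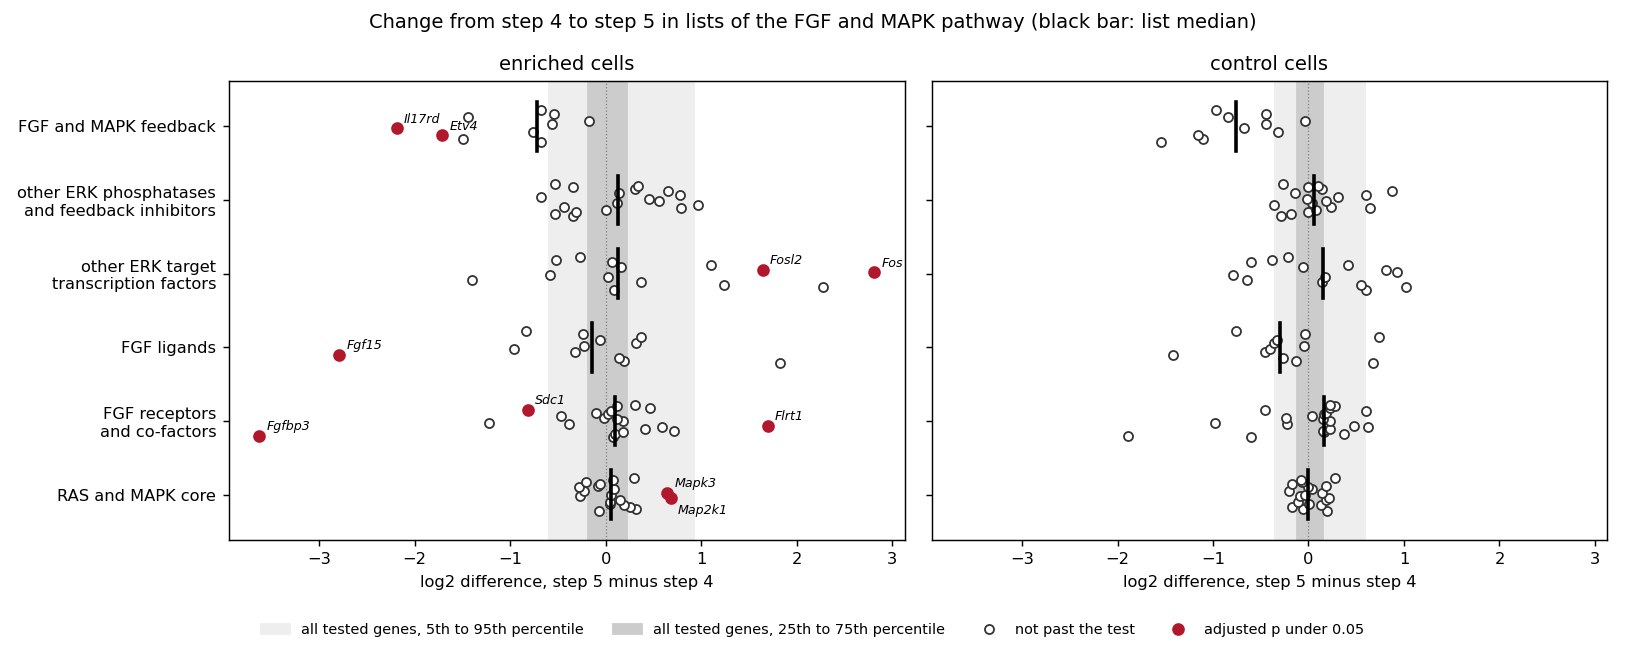
Difference between step 5 and step 4 in log2 units for the feedback genes and 5 other lists of the FGF and MAPK pathway, in enriched cells (left) and control cells (right). Each circle is a gene, filled where the adjusted p is under 0.05, black bars are list medians, and grey bands span the middle of all tested genes. The medians of the feedback genes are -0.72 and -0.76, while those of the other lists lie between -0.14 and 0.13 in enriched cells and between -0.30 and 0.16 in control cells.

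Other genes of the pathway were read from 5 lists of 84 tested genes in all. Only in step 5 enriched cells were Fgf2, Fosl1 and Spry3 well above background on all 3 arrays. They entered the tests through that group and are left out of the lists. Fosl1 was above background on 2 of 3 arrays of each other group. Between the steps in enriched cells 8 of the 84 (9.52%) passed, beside 6.42% of all genes, and 17 (20.2%) with slide as a block, beside 11% of all genes. Of 14 other transcription factors and early genes downstream of ERK that were tested, 2 rose and 0 fell between the steps in enriched cells, with a list median of 0.12. With slide as a block 4 rose and 1 fell, with Egr1 (2.28, adjusted p = 0.0467) and Egr2 (1.24, adjusted p = 0.0483) added upward and Elk3 downward. Fos, a subunit of the AP-1 factor and an early response gene of ERK, had log2 ratios of 2.92, 2.93 and 2.48 in step 5 enriched cells, against 0.25, 0.13 and -0.47 in step 4 enriched cells. The groups lay far apart, opposite in direction to Il17rd and Etv4 on the same arrays, and the difference was 2.81 (SE 0.38, adjusted p = 0.00367). Fosl2, another AP-1 subunit, rose by 1.64 (adjusted p = 0.0405). Ier3 had a difference of 1.11 (adjusted p = 0.0519) and the ETS factor Elk3 one of -1.40 (adjusted p = 0.0853). In control cells Fos had a difference of 0.92 (adjusted p = 0.513).

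Of 18 other MAP kinase phosphatases and pathway inhibitors 0 rose and 0 fell by limma in enriched cells. With slide as a block 3 rose and 1 fell. The list median was 0.13. Dusp2, a nuclear MAP kinase phosphatase, had the smallest adjusted p, with a difference of 0.96 (adjusted p = 0.0821), then Dusp7 with 0.56, Dusp14 with 0.78 and Spred3 with -0.53. These 4 are the genes past the test with the block.

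Of 12 FGF family genes tested 0 rose and 1 fell in enriched cells, and with slide as a block 1 rose and 1 fell. Fgf15, a ligand of the developing brain, had log2 ratios of 0.41, 0.79 and 0.65 in step 5 enriched cells, against 3.32, 2.89 and 4.01 in step 4 enriched cells. It fell by 2.79 (SE 0.47, adjusted p = 0.00914). Fgf2, the gene of bFGF itself, was well above background on 3 of 3 arrays in step 5 enriched cells and on 0 of 3 in step 4 enriched cells. In control cells it was so on 2 of 3 arrays at step 5 and on 0 of 3 at step 4, and no fold or test is given. Fgf9 had a difference of -0.83 (adjusted p = 0.053) and Fgf7 one of 0.37 (adjusted p = 0.166), and Fgf1 had one of 1.82 (adjusted p = 0.173, and 0.0304 with slide as a block).

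Of 21 receptors and co-factors 1 rose and 2 fell in enriched cells. Fgfbp3, a secreted FGF-binding protein, had log2 ratios of 1.66, 1.80 and 1.60 in step 5 enriched cells, against 3.90, 5.67 and 6.38 in step 4 enriched cells. It fell by 3.63 (SE 0.60, adjusted p = 0.00839). The proteoglycan Sdc1 fell by 0.81 (adjusted p = 0.0493), the membrane protein Flrt1 rose by 1.70 (adjusted p = 0.0169), and Flrt3 had a difference of -1.22 (adjusted p = 0.124), which fell with slide as a block (adjusted p = 0.0223). Of 19 core RAS and MAPK genes 2 rose, Map2k1 (MEK1) by 0.68 (adjusted p = 0.0148) and Mapk3 (ERK1) by 0.64 (adjusted p = 0.0353), and 0 fell. Nras had a difference of -0.23 (adjusted p = 0.301). In control cells 0 genes of any of these 5 lists passed the test, as did 0% of all genes.

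Between enriched and control cells, genes of these lists passed in both directions. At step 5 it was 30 of the 84 (35.7%), beside 40.4% of all genes, and at step 4 it was 23 (27.4%), beside 31.1%. With slide as a block it was 40 (47.6%) at step 5, beside 46.9% of all genes, and 34 (40.5%) at step 4, beside 39.3%. At step 5, 8 of 14 transcription factors and early genes rose and 1 fell, among them Fos (1.83, adjusted p = 0.00378), Etv1 (1.17, adjusted p = 0.0187), Egr2 (1.25, adjusted p = 0.0258) and Mycn, which fell by 1.75 (adjusted p = 0.00505). Etv1, a PEA3-class factor like Etv4, thus passed in the direction opposite to Etv4. Between the steps the mean of Etv1 was lower at step 5, as that of Etv4 was, but did not pass the test. It was 2.80 at step 5 against 3.38 at step 4 in enriched cells, and 1.62 against 2.41 in control cells. Of 18 phosphatases and inhibitors 2 rose and 1 fell (5 and 1 with slide as a block). Pebp1 rose by 0.74 and Dusp8 by 1.55, while the ERK phosphatase Dusp9 fell by 2.57 (adjusted p = 0.00536). Of receptors and co-factors 6 rose and 2 fell, and of core genes 4 rose and 3 fell. Of FGF family genes 2 rose and 1 fell (4 and 1 with slide as a block).

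At step 4, 3 transcription factors and early genes rose and 1 fell (5 and 2 with slide as a block), 3 phosphatases and inhibitors rose and 0 fell (5 and 2 with slide as a block), and 2 core genes rose and 3 fell. Of the FGF family genes 3 rose and 1 fell. Fgf4, a ligand that mESC make, had log2 ratios of -6.81, -4.22 and -7.33 in step 4 enriched cells, against -0.58, -0.86 and -0.90 in step 4 control cells, and fell by 5.33 (adjusted p = 0.00163). The pluripotent stem cell markers fell in the same comparison, as given above. Of the receptors and co-factors 5 rose and 2 fell, and Fgfr1, the main FGF receptor of neural precursors, rose by 1.40 (SE 0.37, adjusted p = 0.0174), with 2.90, 2.15 and 2.22 in enriched cells against 1.15, 0.55 and 1.38 in control cells. Fgfr1 was thus higher in enriched cells on every slide. Fgfr4 was among the receptors and co-factors that fell, with a mean of -1.97 in step 4 enriched and -0.79 in step 4 control cells. The part of the receptors in the level of the feedback genes was not tested.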

How the data were processed

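RNA of 12 samples was measured on 2-colour Agilent arrays, with 0 dye swaps. The authors' scanner files hold mean signals and local background as intensity, per the file headers, and a processed log10 ratio of Cy5 to Cy3, per the file headers. The deposited values are in log2 and matched that ratio turned to log2, within rounding, for 99.4% to 99.5% of probes on each array. Mean signals were corrected by normexp (offset 50) and normalized by loess within arrays in limma 3.58.1 (R 4.3.3, data.table in version 1.17.8), without control and outlier spots. Tested probes had Cy5 well above background on every array of 1 group or more, and the brightest probe stood for a gene, named as in the files or through RefSeq.

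All 12 arrays entered 1 fit on the 4 group means with eBayes, two-sided, with Benjamini-Hochberg adjustment over 22319 genes and a threshold of 0.05. SEs, 95% intervals and p-values are from this fit, and slide differences from single arrays. The fit was also run on simulated data, which had no slide effect, and nothing is concluded from that run. The labels name no pairing, but array barcodes in them put the same replicate number on the same slide, and deviations from group means correlated between same-numbered arrays at 0.341 to 0.413 (enriched cells, step 5 with step 4), 0.463 to 0.747 (control cells, step 5 with step 4), 0.188 to 0.361 (step 5, enriched with control) and 0.130 to 0.644 (step 4, enriched with control). The fit with slide as a block is therefore printed where it changes the call of a member, or moves a list's count by over 1.5 times. Members, gene lists and the rule for named genes (all 10 members, up to 4 genes of a list with the smallest adjusted p, 2 most alike genes) were chosen with earlier results of these data known. Fos in control cells, S100b, Nes, Egr1, Egr2 and Etv1 between the steps, and the second probes were named after their values were seen. The 3 genes above background on every array of a single group were also left out of the lists after that. A gene that this rule selects among the core genes is not reported here. Probe positions are mm9 and promoters GRCm38.p6. The number of arrays limits the precision. Alternatives are given in the closing section.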

Additional observations from a re-analysis of the deposited data

How the results depend on the processing

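Counts of members past the test depended on the setting. For step 5 minus step 4 in enriched cells the count was 2, and 1 with the scanner's processed log ratio, with the deposited values, with median centring or with no filter, 5 with slide as a replicate block, 0 without slide 2 and 0 with only the compared groups. Of all genes 1433 passed in the main fit, 2447 with the block, 310 without slide 2 and 939 with only the compared groups. Leaving out single arrays gave 0 to 2 members. It gave 0 without step 5 enriched replicate 2 or 3, where 789 and 610 of all genes passed. Il17rd was past the test in 20 of 24 alternatives and Etv4 in 9 of 24. The alternatives are not independent. Further scaling between arrays (Aquantile) left the ratios unchanged and could only repeat the main result. The scanner's ratio and the deposited values are nearly the same. Every count over alternatives in this section includes these settings. For enriched minus control at step 4 the member count was 0, 2 with the block, and 0 to 1 without single arrays. All genes past that test were 6950, and 8768 with the block. At step 5 the member count was 1, 0 with median centring, 0 with no filter, 0 without slide 2 and 2 with the block. It was 0 to 2 without single arrays, and Etv4 was past the test in 13 of 24 alternatives. All genes past the test at step 5 were 9027, 5770 without slide 2 and 10470 with the block. In control cells between the steps, and for the difference of the changes, the member count was 0 under every alternative run. Up to 408 and up to 16 of all genes passed there. The block changed no other member call. Of the member values under alternatives 1112 kept direction and side of the threshold, 30 were no longer past it, 9 newly passed it and 39, all of values not past it, turned sign.

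Without slide 2, Spred2 between the steps in control cells was 0.12, Spry4 at step 4 0.16, Spry1 at step 5 -0.016, Dusp6 at step 5 -0.079 and the Spry4 difference of changes -0.12. With median centring, Spry4 was 0.030 and Spred2 0.085 at step 4 (enriched minus control), where all genes shifted by a median of 0.13 at both steps, and the share of calls higher in enriched cells was 66.1% against 50.2% at step 5 and 65.0% against 48.1% at step 4. Ranges without single arrays were, between the steps, -1.27 to 0.091 for Spry4 in enriched cells, and -0.13 to 0.11 for Spred2 and -0.62 to 0.00202 for Etv5 in control cells. At step 5 they were -0.071 to 0.74 for Spry1, -0.089 to 0.23 for Spry2, -0.48 to 0.59 for Spry4, -0.23 to 0.84 for Dusp4 and -0.35 to 0.87 for Dusp6. At step 4 they were -0.12 to 0.37 for Spry2, -0.95 to 0.21 for Spry4 and -0.16 to 1.00 for Dusp6. For the difference of changes they were -0.32 to 0.18 for Spry2, -0.30 to 1.06 for Spry4, -0.46 to 0.28 for Spred1 and -0.94 to 0.37 for Dusp6. The causes were not tested.

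Over all genes, counts past the test were 1433 (310 to 2447 under alternatives) between the steps in enriched cells, 0 (0 to 408) in control cells, 9027 (5770 to 10470) at step 5, 6950 (3018 to 8768) at step 4 and 0 (0 to 16) for the difference of changes. With 3 arrays a group and the sample always in Cy5, levels against mESC had no test, and slide and replicate cannot be told apart.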
